A study of Mus musculus with 11 samples.

Results

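The T cell receptor gene segments are the V, D, J and constant (C) genes from which a T cell assembles its antigen receptor. They were taken here as every row whose symbol starts with Trbv, Trbd, Trbj, Trbc, Trav, Traj, Trac, Trdv, Trdj, Trdc or Tcrg-, which gave 144 of the 37224 gene rows. They fell into 10 of 13 classes: 21 Trbv, 14 Trbj, 2 Trbc, 34 Trav, 59 Traj, 1 Trac, 5 Trdv, 2 Trdj, 5 Tcrg-V and 1 Tcrg-C. No row had a symbol of the Trbd, Trdc or Tcrg-J classes. A further 84 rows were receptor segments by their gene identifier but were listed under clone-based or other names; they were not members, and their values are given beside the class they belong to.

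The study compared T cell acute lymphoblastic leukaemia (T-ALL) with and without Utx, a histone H3K27 demethylase encoded by Kdm6a on the X chromosome. cKit haematopoietic progenitors from knockout (Utx-/Y) or wild-type (Utx+/+ or Utx+/Y) donors, in a C57/BL6 background, received a retrovirus for Notch1-IC, the active intracellular form of Notch1, and were transplanted intravenously. All leukaemias of both genotypes therefore carried the same oncogene, which is driven from a viral vector and not from the Notch1 locus. Blasts came from bone marrow (4 samples) and spleen (7 samples), with 5 knockout and 6 wild-type samples, of which 3 were labelled as reruns. Neither the age of the mice nor how many animals gave each pool was stated. The deposited table holds 1 pooled count per gene for the knockout and 1 for the wild type, so no comparison below has a replicate check, bone marrow and spleen cannot be told apart, and a leukaemia that contributed most of a pool's receptor RNA cannot be told apart from a change shared by all leukaemias of that genotype. In these pools, fewer cells that carry a segment and less RNA of it per cell cannot be told apart either.

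A T cell receptor chain is made by joining 1 V segment, 1 D segment in the beta and delta chains, and 1 J segment in the DNA, after which splicing attaches a constant exon. The Trb locus assembles early in the thymus and its chain pairs first with the surrogate chain encoded by Ptcra; the Tra locus rearranges later and can do so repeatedly, moving outward to more distant V and J segments. A T-ALL grows from few transformed T cell precursors, so that the descendants of a cell share its joined segments. Unjoined segments can also be transcribed before they recombine.

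The reference gene models place the beta segments on the plus strand of chromosome 6 (GRCm38, GENCODE M21), with the J segments in cluster 1 before Trbc1 and in cluster 2 between Trbc1 and Trbc2. The following Trbj segments are shown because their counts separated the pools or led both of them. Capitals mark the J motif searched on the coding strand: TTTGG or TTCGG, any 4 bases, GG and any base, which codes for the conserved phenylalanine-glycine turn of a working J segment. It occurs in 11 of 14 Trbj, 43 of 60 annotated Traj and 56 of all 80 annotated J segments (70.0%).
Trbj2-1, chr6:41542754-41542803: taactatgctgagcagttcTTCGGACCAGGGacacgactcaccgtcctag
Trbj1-1, chr6:41533864-41533911: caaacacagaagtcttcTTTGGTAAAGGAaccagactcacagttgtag
Trbj1-2, chr6:41534001-41534048: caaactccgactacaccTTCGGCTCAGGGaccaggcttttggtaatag
Trbj1-6, chr6:41535554-41535606: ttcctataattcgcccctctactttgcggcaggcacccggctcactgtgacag
Trbj2-2, chr6:41542957-41543007: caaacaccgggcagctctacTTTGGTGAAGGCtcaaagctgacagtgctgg
Trbj2-3, chr6:41543223-41543271: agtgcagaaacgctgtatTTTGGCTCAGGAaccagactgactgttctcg
Trbj2-5, chr6:41543453-41543501: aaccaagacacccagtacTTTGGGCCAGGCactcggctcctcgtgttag
Trbj2-6, chr6:41543598-41543645: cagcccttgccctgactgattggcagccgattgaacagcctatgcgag

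Of these, Trbj1-6 and Trbj2-6 lack the searched letters, and Trbj2-6 is annotated as a pseudogene. The annotated transcripts of the Trbj segments are 46 to 53 bases long, and 8 of the 14 are shorter than the 50-base sequencing read. A read from a joined transcript therefore reaches past the segment into V, D or C sequence. The sources used here do not give how such reads were assigned.

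The last 60 bases of 4 Trbv transcripts are shown because Trbv5, Trbv14 and Trbv15 hold the largest differences among the Trbv segments, and Trbv30 has the lowest log2 ratio among them after Trbv15. Capitals mark TGTGCCAGC, searched on the coding strand, which codes for the conserved cysteine and the start of the third complementarity-determining loop. It is present in the last 60 bases of 17 of 35 annotated Trbv segments (48.6%) and of 11 of the 21 Trbv members.
Trbv5: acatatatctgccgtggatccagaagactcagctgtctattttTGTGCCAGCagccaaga
Trbv14: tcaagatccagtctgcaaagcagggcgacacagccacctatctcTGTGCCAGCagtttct
Trbv15: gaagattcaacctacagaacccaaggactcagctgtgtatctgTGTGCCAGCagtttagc
Trbv30: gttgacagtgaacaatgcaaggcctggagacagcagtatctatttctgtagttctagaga

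Trbv30 does not hold the searched letters there. Over these 60 bases and the rest of their transcripts, Trbv14, Trbv15 and Trbv30 share no run of 50 bases with the transcripts of any other gene. Trbv5 and Trbv4 do: 77.4% and 72.1% of their 50-base words also occur in an annotated long noncoding RNA of the same stretch of the locus, 5830405F06Rik.

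The table sums to 106445530 counts in the knockout and 108015222 in the wild-type pool. Kdm6a, the deleted gene, had 1115 counts in the knockout and 6299 in the wild-type pool (10.5 and 58.3 counts per 1000000 of the pool's total, CPM, log2 ratio -2.48). The sources used here do not give the deleted exon, and this checks the direction of the labels and no more. The pools are not T cells alone: erythroid marker genes summed to 19930 CPM in the knockout and 9834 CPM in the wild-type pool, and granulocyte and monocyte markers to 2137 and 1751 CPM.

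A call of higher or lower required that the pools together held at least 100 counts of the segment, that its CPM differed at least 2-fold and that the exact 95% Clopper-Pearson interval of the log2 ratio did not include 0. Intervals here and below cover counting error only, not the spread between leukaemias. Log2 ratios are of knockout over wild type after 0.5 counts were added to each pool. Of the 144 segments, 12 had no count in either pool, 63 had 1 to 19, 26 had 20 to 99 and 43 had at least 100. Among these 43, 18 were higher (41.9%) and 12 lower (27.9%) in the knockout pool, and 13 were neither. With each segment scaled to its own locus in place of the pool total, 21 were higher and 6 lower. Over all 13833 genes with at least 100 counts, 11.2% were higher and 5.36% lower. The median log2 ratio of the 43 was 0.53 and the median of its absolute size 1.48, against -0.07 and 0.38 over all genes tested. Receptor segments are thus spread to both sides, and more widely than the median gene of the table.

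**Figure D1:**
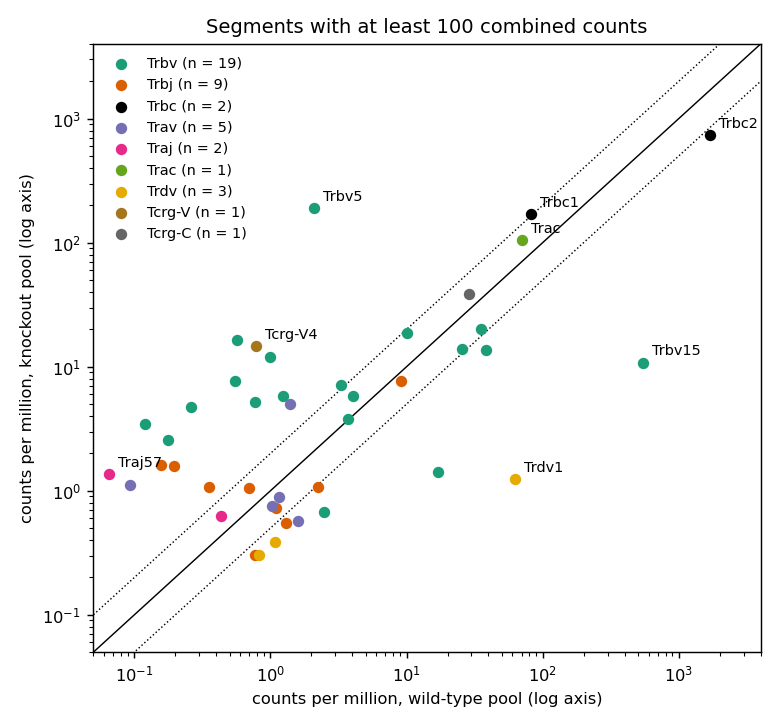
Level of each of the 43 receptor segments with at least 100 combined counts in the wild-type pool (x) and the knockout pool (y), in CPM on log axes, coloured by class. The solid line marks equal levels and the dotted lines a 2-fold difference; Trbv5 and Tcrg-V4 lie far above, and Trbv15 and Trdv1 far below, while Trac stays between the dotted lines.

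The beta V segments were led by a different segment in each pool. Trbv5 (chr6:41062332-41062803, a variable gene) had 20176 counts in the knockout and 227 in the wild-type pool, that is 189.5 and 2.10 CPM. It made up 55.1% of the Trbv counts of the knockout pool (95% interval 54.6 to 55.6%) and 0.304% of those of the wild-type pool. Its log2 ratio of 6.49 (6.31 to 6.69) was the highest among the 43. Trbv15 (chr6:41141188-41141658) was the reverse, with 1148 and 58956 counts, or 10.8 and 545.8 CPM. Its share was 3.14% in the knockout and 78.9% in the wild-type pool (78.6 to 79.1%), and its log2 ratio of -5.66 (-5.75 to -5.58) was the lowest of the 43. Each pool thus drew most of its beta V counts from a single segment that was minor in the other pool.

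The remaining Trbv segments with at least 5% of the counts of a pool were modest beside these. Trbv29 had 2163 counts in the knockout and 3832 in the wild-type pool, which is 5.91% and 5.13% of the class and a log2 ratio of -0.80, short of a call. Trbv19 had 1458 and 4119 counts and was called lower, with a log2 ratio of -1.48 (-1.56 to -1.39). Trbv13-2 had 2004 and 1080 counts (5.48% and 1.44%; log2 ratio 0.91), again short of a call. After the 2 leaders, no Trbv segment held more than 5.91% of the knockout or 5.51% of the wild-type counts.

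The other extremes of the 43 also included Trbv segments. Trbv14 (chr6:41135145-41135616) had 1756 counts in the knockout and 61 in the wild-type pool (log2 ratio 4.86, 4.50 to 5.26). Trbv4 (chr6:41059394-41059886) had 365 and 13 (4.78, 4.04 to 5.76). Trbv30 (chr6:41281376-41281990) went the other way with 150 and 1839 (-3.59, -3.84 to -3.35), as did Trbv23 (chr6:41216073-41216526) with 72 and 265 (-1.85, -2.26 to -1.48). In all, 10 of the 19 tested Trbv segments were higher, 4 lower and 5 neither. Trbv10, annotated as a pseudogene, had no count, and Trbv21 had 1 count in the knockout and 2 in the wild-type pool.

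Summed over the class, Trbv RNA was lower in the knockout pool, at 36595 against 74763 counts (344 and 692 CPM), a log2 ratio of -1.01. This sum passes the 2-fold threshold only just: with TMM scaling the ratio is -0.93, and without Trbv15 it is 1.19 in the other direction. Leaving out both Trbv5 and Trbv15, the other 19 segments summed to 15271 and 15580 counts, or 143 and 144 CPM (log2 ratio -0.01, -0.04 to 0.02). Scaled to the pool totals, the listed symbols below the leaders thus held the same summed level in both pools within counting error. The pools divided it differently. Other scalings were not applied to this sum, which leaves out Trbv12-1 and Trbv12-2, listed under clone names. The inverse Simpson index, which gives the number of equally used segments that would be as concentrated as the observed counts, was 3.12 in the knockout and 1.59 in the wild-type pool over all Trbv. It was 11.3 and 5.47 without Trbv5 and Trbv15. In the knockout pool 10 segments were needed to reach 90% of the counts, and in the wild-type pool 4.

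**Figure D2:**
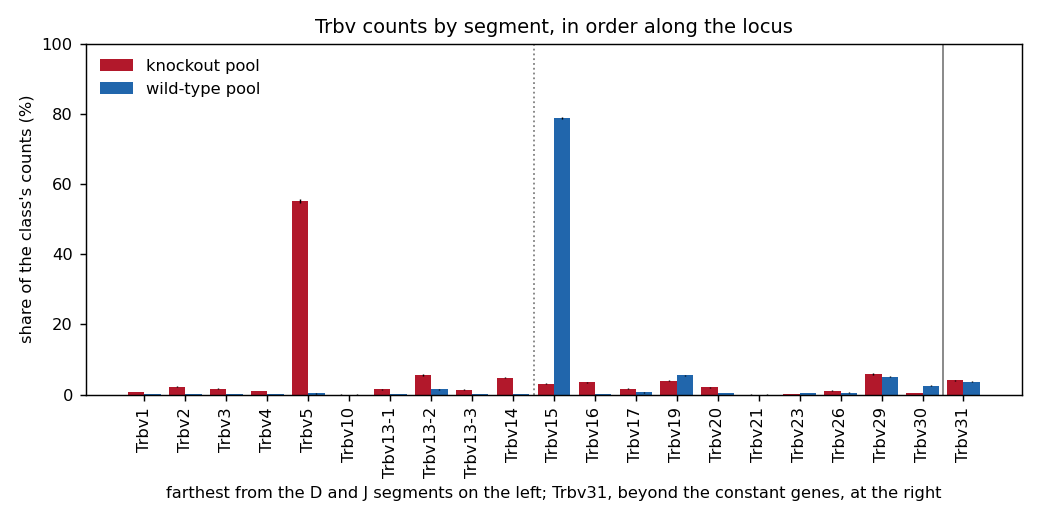
Share of each Trbv segment in its pool's Trbv counts (y, percent; error bars are exact 95% binomial intervals), ordered along the locus from the segment farthest from D and J at the left; the dotted line divides the 10 far from the 10 near segments and the solid line sets off Trbv31, which lies on the minus strand beyond Trbc2. Trbv5 stands out at 55.1% in the knockout and Trbv15 at 78.9% in the wild-type pool.

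The pools also divided their Trbv counts differently along the array. The 10 plus-strand segments farthest from D, Trbv1 to Trbv14, held 77.1% of the plus-strand counts of the knockout pool (76.6 to 77.5%) and 2.36% of those of the wild-type pool (2.26 to 2.48%). The leaders dominate these values, since Trbv5 lies in the far and Trbv15 in the near group. Without both of them, the far group still held 50.0% of the knockout and 11.5% of the wild-type counts (49.1 to 50.8% and 11.0 to 12.1%). Trbv19, Trbv29 and Trbv30 had 4119, 3832 and 1839 of the 11357 wild-type counts then left in the near group. In the knockout pool they had 1458, 2163 and 150 of 6904. The division was not repeated without these 3, so a trend in the shares cannot be told apart from their counts. All 9 far segments with at least 100 counts had a log2 ratio above 0, from 0.91 for Trbv13-2 to 6.49 for Trbv5, and 8 of them were called higher. Of the 9 near segments, 4 were above and 5 below 0, with 2 called higher (Trbv16, 1286 and 108 counts, and Trbv20, 755 and 354) and 4 called lower. Trbv31 (chr6:41557691-41558452), which joins by inversion, had 1468 and 2747 counts, 4.01% and 3.67% of the class, and was not called. The far group also holds 2 Trbv segments listed under clone names: Trbv12-2, with 1165 and 283 counts (log2 ratio 2.06), and Trbv12-1, with 344 and 394 (-0.17).

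The beta D segments were listed only under other names. Trbd1, the 12-base D segment before cluster 1 (chr6:41533201-41533212), had 323 counts in the knockout and 251 in the wild-type pool (log2 ratio 0.38, 0.14 to 0.63), and Trbd2 had 10 and 7. Trbd1 was short of a call and Trbd2 held too few counts to compare. A D segment is much shorter than a read, so a read counted for it also covers bases beside it. Whether these reads came from joined or unjoined segments was not tested, and the counts do not measure D use in finished chains.

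The beta J segments shared their leader. Trbj2-1 had 813 counts in the knockout and 981 in the wild-type pool, 45.1% (42.8 to 47.4%) and 53.9% (51.6 to 56.2%) of the Trbj counts, and its log2 ratio of -0.25 (-0.39 to -0.11) was not called. The class sum did not differ beyond counting error, with 1804 and 1819 counts, or 16.9 and 16.8 CPM (log2 ratio 0.01, -0.09 to 0.10). Beneath the shared leader the pools divided their Trbj counts differently. What part of these counts came from joined segments was not tested.

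Higher in the knockout pool was Trbj1-2, with 171 against 17 counts (9.48% and 0.935% of the class, log2 ratio 3.31, 2.63 to 4.16). Trbj2-6, the pseudogene, had 167 against 21 counts (9.26% and 1.15%, log2 ratio 2.98, 2.35 to 3.74), and Trbj2-5 had 115 against 38 (6.37% and 2.09%, log2 ratio 1.61, 1.08 to 2.19). Trbj1-1 had 65 counts in the knockout and none in the wild-type pool. That is 22.0-fold above a floor of 3 counts per pool, with a lower limit of 4.12 for the log2 ratio. The total of Trbj1-1 stays under the 100 counts needed for a call. Its 0 allows a share of at most 0.203% of the wild-type Trbj counts.

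Lower in the knockout pool were Trbj2-3, with 115 against 240 counts (6.37% and 13.2%, log2 ratio -1.04), Trbj2-2, with 58 against 140 (3.22% and 7.70%, -1.24), and Trbj1-6, with 32 against 83 (1.77% and 4.56%, -1.34). Trbj2-3 lies at the threshold and is not called with TMM scaling. Trbj1-3 had 77 and 118 counts (4.27% and 6.49%, log2 ratio -0.59) and Trbj2-7 had 112 and 75 (6.21% and 4.12%, 0.60), both short of a call. The remaining 4 segments had 10 to 48 counts in either pool. Cluster 1 held 22.9% of the knockout and 16.6% of the wild-type Trbj counts, intervals of 21.03 to 24.96% and 14.9 to 18.4% that do not overlap. Without Trbj2-1 these shares were 41.8% and 36.0%, and their intervals (38.7 to 44.9% and 32.8 to 39.4%) did overlap.

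**Figure D3:**
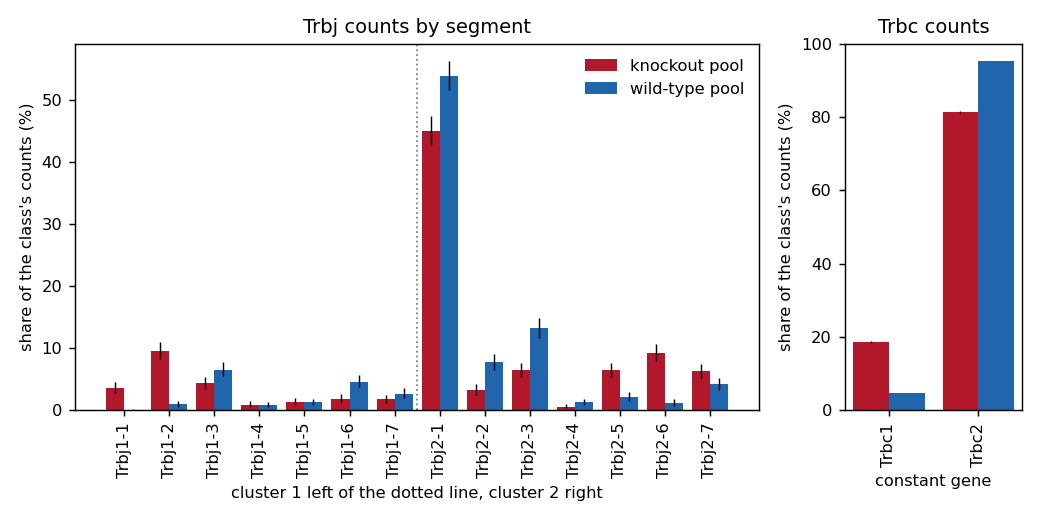
Share of each Trbj segment (left) and of each Trbc gene (right) in its class's counts (y, percent) in the knockout and wild-type pools; error bars are exact 95% binomial intervals and the dotted line divides J cluster 1 from cluster 2. Trbj2-1 leads both pools, and Trbc1 holds 18.6% of the knockout against 4.61% of the wild-type constant counts.

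Trbc2 was the most abundant segment of both pools. Trbc2 (chr6:41546730-41548352), which is spliced to joins that use J cluster 2, had 78765 counts in the knockout and 182316 in the wild-type pool (log2 ratio -1.19, -1.20 to -1.18) and was called lower. Trbc1 (chr6:41538218-41539881), the constant gene after cluster 1, had 17993 and 8818 counts (log2 ratio 1.05, 1.01 to 1.09) and was called higher. Trbc1 thus held 18.6% of the beta constant counts in the knockout and 4.61% in the wild-type pool, while their sum was 909 against 1770 CPM (log2 ratio -0.96).

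How far reads can tell these genes apart is limited by their sequence. The transcripts are identical over their first 259 bases, and 41.1% of the 50-base words of Trbc1 and 44.0% of those of Trbc2 are shared. Bases 373 to 432 of both transcripts are printed because 8 of their differences fall there, marked in capitals.
Trbc1: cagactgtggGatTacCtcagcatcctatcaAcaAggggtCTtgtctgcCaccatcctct
Trbc2: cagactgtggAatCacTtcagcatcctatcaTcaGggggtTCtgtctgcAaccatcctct

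The sources used here do not give how reads from the identical part were shared out, and the Trbc1 share is uncertain. Their sum is less so, and it can be set beside the other beta classes. Trbv counts were 37.8% of the Trbc counts in the knockout and 39.1% in the wild-type pool, so that V and C levels differed between the pools by nearly the same factor. Trbj counts were 1.86% and 0.952% of the Trbc counts, since their sum did not differ while that of Trbc did.

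The alpha constant gene went the other way from the beta sum. Trac (chr14:54220521-54224206), the single constant gene of the alpha chain, had 11210 counts in the knockout and 7571 in the wild-type pool, or 105 and 70.1 CPM (log2 ratio 0.59, 0.55 to 0.63), short of a call. Per kilobase of gene model, the beta constant genes stood at 1295 and 2548 CPM per kb and Trac at 113 and 75.0 CPM per kb. The beta level was thus 11.5 times the alpha level in the knockout pool and 34.0 times in the wild-type pool.

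Few alpha V segments had enough counts to compare. Of the 34 Trav members, 5 had at least 100 counts, with 2 higher, 1 lower and 2 neither. Trav21-dv12 (chr14:53875984-53876752), a V segment that can serve alpha or delta chains, had 534 counts in the knockout and 150 in the wild-type pool (log2 ratio 1.85, the leader of the knockout pool). Trav13n-4 (chr14:53362267-53364106) had 119 and 10 (log2 ratio 3.53). Trav16d-dv11 (chr14:53047287-53047821), which led the wild-type pool, had 61 and 172 (-1.47). Trav6n-6 had 94 and 125 counts (-0.39), and Trav19 had 80 and 111 (-0.45), neither called. Among the rest, Trav20 and Trav3-4 had over 5% of the wild-type counts, with 32 and 48 and with 24 and 42 counts. Summed, the members had 1106 and 746 counts (10.4 and 6.91 CPM, log2 ratio 0.59), and without Trav21-dv12 their log2 ratio was -0.04.

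Shares within Trav are partial, because the gene identifiers assign 105 rows to this class. With all of them, Trav21-dv12 held 25.5% of 2091 knockout counts and Trav16d-dv11 16.1% of 1068 wild-type counts, in place of 48.3% and 23.1% over the members alone. The summed log2 ratio was then 0.99. The row that adds most is Trav6-7-dv9 (chr14:53709902-53710419), with 532 counts in the knockout and none in the wild-type pool. Its knockout level is 180-fold above the 3-count floor, and the lower limit of its log2 ratio is 7.19. Trav6-7-dv9 nearly equals Trav21-dv12 as the leading alpha V segment of the knockout pool. The mouse Trav array contains duplicated blocks: 26 of 33 Trav members with a transcript share 50-base words with another gene, 10 of them at least 50% of their words. Counts of single Trav segments are uncertain for that reason. Among the named segments, Trav16d-dv11 shares 62.8% of its words, Trav6n-6 31.6% and Trav13n-4 15.9%, while Trav21-dv12 and Trav19 share none. Shared words were counted for the members only. How far the counts of Trav6-7-dv9 belong to that segment alone was therefore not tested. Over the members placed on the locus, the 17 Trav segments farthest from J held 20.6% of the knockout and 44.2% of the wild-type counts. Trav21-dv12 alone had 534 of the 877 knockout and 150 of the 416 wild-type counts of the segments nearer to J. The division was not repeated without it or with the rows under other names.

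The alpha J segments that distinguish the pools are shown next, with the J motif in capitals where present. They lie on the plus strand of chromosome 14, with Traj61 at the V side and Traj1 next to Trac.
Traj57: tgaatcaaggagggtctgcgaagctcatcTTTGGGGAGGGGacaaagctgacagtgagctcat
Traj45: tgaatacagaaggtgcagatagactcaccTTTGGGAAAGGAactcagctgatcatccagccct
Traj19: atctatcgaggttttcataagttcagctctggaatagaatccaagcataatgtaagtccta

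Traj57 (chr14:54158505-54158569) led the knockout pool, with 144 counts against 7 in the wild-type pool (23.7% and 1.54% of the class, log2 ratio 4.29, 3.30 to 5.72). Traj49, with 67 and 47 counts, was the only other Traj segment with at least 100 counts, and it was not called (log2 ratio 0.53). Traj45 (chr14:54172828-54172890) had 66 and 2 counts, too few for a call. Traj19 (chr14:54200386-54200446), which lacks the J motif letters, led the wild-type pool with 72 counts, 15.8% of its Traj counts, against 23 in the knockout pool. Traj48 had 42 and 33 counts, Traj16 had 37 and 5, Traj33 had 34 and 3, and Traj18 had 10 and 45. Most of the class was thin: 39 of the 59 Traj segments had 1 to 19 counts in both pools together and 6 had none.

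Along the Traj array the knockout counts lay nearer to V and the wild-type counts nearer to C, with few segments holding much of either. Traj61 to Traj41, the 20 V-side segments, held 59.0% of the 608 knockout counts (55.0 to 63.0%) and 32.1% of the 455 wild-type counts (27.8 to 36.6%). The 20 segments from Traj40 to Traj21 held 25.5% and 28.4%, with intervals that overlap. The 19 C-side segments, Traj20 to Traj1, held 15.5% (12.7 to 18.6%) and 39.6% (35.0 to 44.2%). Traj57 and Traj45 had 144 and 66 of the 359 V-side knockout counts. Traj19 and Traj18 had 72 and 45 of the 180 C-side wild-type counts. The division was not repeated without these segments, so a trend along the array cannot be told apart from their counts. Traj counts were 5.42% of the Trac counts in the knockout and 6.01% in the wild-type pool. The inverse Simpson number was 10.01 in the knockout and 15.6 in the wild-type pool, but over the Traj segments with at least 20 combined counts it was 7.31 and 7.25, so that the order of the pools rests on the thinly counted segments.

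**Figure D4:**
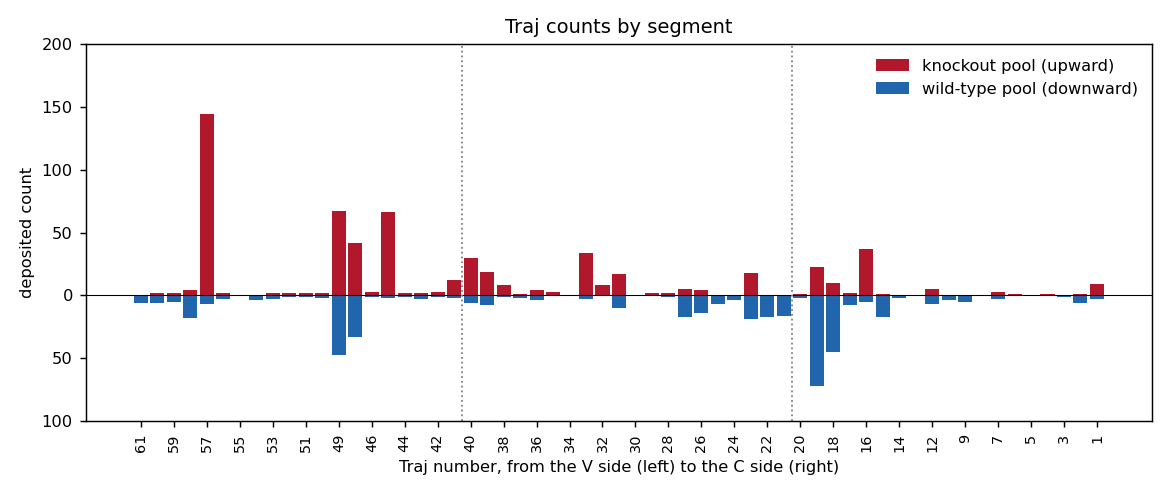
Deposited count of each Traj segment in the knockout pool (bars upward) and the wild-type pool (bars downward), in order of number from the V side at the left to the C side at the right; dotted lines divide the 20 V-side, 20 middle and 19 C-side segments. Traj57 with 144 counts is the tallest knockout bar and Traj19 with 72 the tallest wild-type bar.

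The delta V segments were mostly a matter of Trdv1 (chr14:53881612-53882217). It had 133 counts in the knockout and 6735 in the wild-type pool, or 1.25 and 62.4 CPM (log2 ratio -5.64, -5.90 to -5.39), and made up 55.4% and 96.6% of the Trdv counts. Trdv2-2 had 41 and 117 counts (log2 ratio -1.48) and Trdv5, which lies on the minus strand beyond the delta J segments, had 32 and 89 (-1.44). All 3 Trdv segments with at least 100 counts were lower in the knockout pool. Trdv1 shares no 50-base word with another gene, but Trdv2-2 shares 52.6% and Trdv5 40.6% of theirs on either strand. Trdv2-1 had 16 and 30 counts. Trdv4 had 18 counts in the knockout and none in the wild-type pool, 6.09-fold above the 3-count floor (lower limit of the log2 ratio 2.16). The class sum was 240 against 6971 counts (log2 ratio -4.84), and without Trdv1 it was 107 against 236 (-1.12). The delta J segments had few counts: Trdj1 had 2 and 23, and Trdj2 had 2 and 3. The delta locus lies within the alpha locus, so that joining V to J in alpha removes it from that chromosome.

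The gamma segments with the rule's symbols were 5 V segments and 1 constant gene. Tcrg-V4 (chr13:19184974-19185506) had 1555 counts in the knockout and 84 in the wild-type pool, or 14.6 and 0.778 CPM (log2 ratio 4.22, 3.91 to 4.57). Tcrg-V7 had 15 and 6 counts, Tcrg-V5 had 18 and 2, Tcrg-V3 had 1 and 3, and Tcrg-V6 had 0 and 1. Tcrg-C, annotated as Tcrg-C4 (chr13:19344558-19352756), had 4107 and 3111 counts (38.6 and 28.8 CPM, log2 ratio 0.42) and was not called.

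Other gamma rows change the picture of the class. Tcrg-C1 (chr13:19214103-19217024), the constant gene downstream of Tcrg-V4, had 4335 counts in the knockout and 322 in the wild-type pool (log2 ratio 3.77, 3.61 to 3.94). Tcrg-V4 and its neighbouring constant gene were therefore both higher in the knockout pool. Tcrg-C2 (chr13:19304649-19307551) had 3739 and 6150 counts (-0.70) and Trgv2 (chr13:19336573-19337167) had 3552 and 4584 (-0.35), neither called. Tcrg-V1 (chr13:19339989-19340454) had 539 and 1381 counts and was called lower (-1.34), and Trgj4 had 646 and 342 (0.94), short of a call. With these rows the summed Tcrg-V counts were 5680 and 6061, a log2 ratio of -0.07, where the members alone gave 4.06. The higher gamma V sum of the knockout pool therefore holds for the listed symbols and not for the class.

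**Figure D5:**
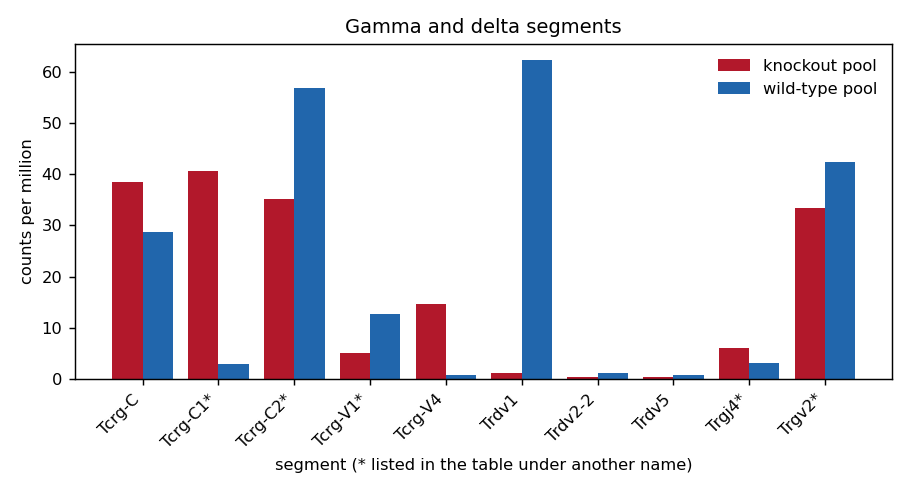
Level in CPM (y) of the gamma and delta segments with at least 100 combined counts in the knockout and wild-type pools; an asterisk marks segments listed in the table under another name. Tcrg-V4 and Tcrg-C1 are higher in the knockout pool, and Trdv1 stands at 1.25 CPM in the knockout against 62.4 CPM in the wild-type pool.

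The genes that assemble and carry the receptor differed less than the segments. Of 28 genes of the receptor complex, its recombination and its signalling, 3 were higher in the knockout pool, 25 passed neither way and none was lower. The 10.7% called higher is near the 11.2% of all genes tested, and the list had a median log2 ratio of -0.01 and a median absolute size of 0.35. Rag1 and Rag2, the recombinase subunits that cut the segments, were both among those called: Rag1 had 18097 counts in the knockout and 6073 in the wild-type pool (log2 ratio 1.60), and Rag2 had 767 and 365 (1.09). Gata3, a transcription factor of the T lineage, had 19069 and 8958 (1.11). Dntt, which adds untemplated bases at the joints, had 5543 and 3968 counts (0.50).

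The partners of the receptor chains were not called. Ptcra, the pre-receptor chain that pairs with beta, had 2477 counts in the knockout and 3705 in the wild-type pool (log2 ratio -0.56). Cd3e, a signalling subunit that every T cell receptor needs, had 46374 and 48165 counts (-0.03). The other signalling subunits Cd3g (-0.28), Cd3d (-0.34) and Cd247 (-0.42) were below 0 and not called either. The coreceptor genes Cd4 and Cd8a had 18320 and 24693 (-0.41) and 28417 and 32057 (-0.15), and Cd8b1 had 35714 and 21500 (0.75). These log2 ratios compare with -0.96 for the beta constant sum.

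Several markers of other T cells and of other blood cells also differed between the pools, against the 11.2% of all tested genes called higher and 5.36% called lower. Of 8 markers of mature naive T cells, 4 were higher in the knockout pool (among them Ccr7, 2.64, Il7r, 2.49, and S1pr1, 2.03, as log2 ratios) and none lower, and the list summed to 1477 against 661 CPM. Of 7 markers of regulatory and memory T cells, 6 had at least 100 counts and 4 were higher: Ctla4 (3.44), Icos (1.71), Il2ra (1.28) and Il2rb (1.15). Foxp3, which defines regulatory T cells, was not (934 and 1165 counts). Of 8 gamma delta T cell markers, 6 had at least 100 counts. Sox13 (1.12) and Cd163l1 (1.05) were higher and Zbtb16 (-2.22) was lower, while Il17a had 0 and 1 counts and Il23r had 8 and 1. The gamma delta list summed to 241 against 164 CPM.

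Of 7 natural killer markers, 5 had at least 100 counts and 3 were higher: Prf1 (2.27), Klrb1c (1.88) and Nkg7 (1.35). Klra8 had no count in either pool and Ncr1 had 14 and 4. The list summed to 229 against 245 CPM, of which Gzma, not called, made up 193 and 236 CPM (log2 ratio -0.29). Of 6 B cell markers, 4 had at least 100 counts. Pax5 was lower (63 and 265 counts, -2.04) and none was higher. The list summed to 130 against 206 CPM, of which Ighm, not called, made up 125 and 200 CPM (log2 ratio -0.68). Cd79b (0.98) and Cd79a (-0.05) were not called either. Cd14 (2.18), Lyz2 (1.59), Csf1r (1.46) and Mpo (1.07) were higher among the 7 granulocyte and monocyte markers. The other 3, which were the most abundant of that list, were not called. S100a9 had 823 and 584 CPM (0.49), S100a8 had 544 and 446 CPM (0.29) and Ngp had 615 and 656 CPM (-0.09). Alas2 (1.33) and Hba-a1 (1.27) were higher among the 5 erythroid ones. Mature T cells carry many V and J combinations, and the part that a different number of non-leukaemic T cells has in the segment values was not tested.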

How the data were processed

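Poly-A+ RNA of mouse T-ALL blasts was sequenced as strand-specific (dUTP), 50-base single reads, per the labels' protocols. The submitters' processing notes name CASAVA, TopHat and the mm9 build; no source used here gives the counting tool or its use of strand. The authors deposited 1 table from DEGseq with, per gene, 1 pooled read count for each genotype, log2 ratios, a z score, and p-values with adjusted q-values. No source used here gives which samples entered each pool. Only the deposited counts gave the reported values; the authors' adjusted p-values served as an alternative call rule, and their log2 ratios and score were not printed.

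Counts were scaled to the pool totals. No test between samples could be made, so calls rest on at least 100 combined counts, a 2-fold difference and an exact 95% interval (scipy 1.17.1). Names, coordinates and sequences came from GENCODE M21 (GRCm38, not the mm9 of the files): 141 members matched by identifier, 2 by symbol and 1 not. edgeR 4.0.16 gave only scaling factors. Named genes were all constant genes, each segment with at least 5% of its class in either pool (or the first 3 by count), the 5 highest and 5 lowest ratios, every called list gene (some are not reported here), and 7 receptor genes fixed by name; neighbours and rows under other names were added after their values were seen. The members and lists were chosen with earlier results of these data known.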

Additional observations from a re-analysis of the deposited data

Results flagged for a closer look

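Receptor segments listed under names outside the rule held counts above the limit that a count of 0 allows, in data that the class values of the members do not use. The gamma rows were Tcrg-C1 (4335 counts in the knockout and 322 in the wild-type pool), Tcrg-C2 (3739 and 6150), Trgv2 (3552 and 4584), Tcrg-V1 (539 and 1381) and Trgj4 (646 and 342). The beta rows were Trbv12-2 (1165 and 283), Trbv12-1 (344 and 394) and Trbd1 (323 and 251). The alpha row was Trav6-7-dv9, with 532 counts in the knockout pool and none in the wild-type pool. Of the 84 such rows, 9 had at least 100 combined counts, 3 of them higher and 1 lower in the knockout pool, and 40 had no count.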

How the results depend on the processing

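No paired analysis was possible because the deposited columns are pools over each genotype, and leaving out single samples could not be done for the same reason. The 18 higher and 12 lower calls became 18 and 11 with TMM or median-of-ratios scaling, 18 and 12 with upper quartile scaling or the authors' adjusted p-values, 26 and 17 from 20 counts, and 21 and 15 at 1.5-fold. Calls fell to 11 higher and 5 lower at a minimum of 500 counts, which tests fewer segments, and to 14 and 3 at 4-fold. The minimum of 20 counts tests more segments. The share of all genes called was computed under the main rule only, so calls under the other rules have no such share beside them. Scaling to the segment's own locus left 6 lower calls; Trbc2, Trbj1-6, Trbj2-2, Trbj2-3, Trbv19 and Trbv23 were lost, and 3 higher calls (Trbj2-7, Trbv13-2 and Trbv17) were gained, for 21 in all.

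The summed Trbv log2 ratio of -1.01 was -0.93 with TMM, -0.94 with median-of-ratios scaling and -0.96 with the rows added by identifier, all under 2-fold. It was 1.19 without Trbv15, and the Trbc ratio of -0.96 was 1.05 without Trbc2. Adding rows by identifier, an alternative chosen after seeing the data, turned the Tcrg-V ratio from 4.06 to -0.073. It moved the share of Tcrg-V4 from 97.9% to 27.4% (knockout) and from 87.5% to 1.39% (wild type), of Trav21-dv12 to 25.5%, of Trav16d-dv11 to 16.1%, of Trbv5 to 52.9% and of Trbv15 to 78.1%. The effective numbers became 7.002 and 11.9 for Trav and 2.11 for Tcrg-V (knockout).

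Per gene length, shares were 56.5% for Trbv5, 80.2% for Trbv15, 97.2% for Trdv1 (wild type), and 17.4% and 4.28% for Trbc1. With members of at least 20 counts, Trav21-dv12 held 52.0%, Traj57 27.9% and Traj19 24.7%. The V-side Traj share with the array divided into 30 and 29 segments was 79.4% and 39.6%. The cluster 1 share without Trbj2-1 was 41.8% and 36.0%, and the far Trbv share without Trbv5 and Trbv15, added after seeing the data, was 50.0% and 11.5%.

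As the exponential of the Shannon entropy effective numbers were 6.53 and 2.56 for Trbv, 7.08 and 5.28 for Trbj, 7.29 for Trav (knockout) and 16.8 and 24.8 for Traj. Without the leading segment they were 12.3 and 5.63 for Trbv, 8.73 and 6.43 for Trbj, 8.71 for Trav (knockout), 2.47 for Trdv (wild type) and 2.10 and 2.88 for Tcrg-V. A minimum of 20 counts lowered the wild-type Traj number to 7.25, against 7.31 in the knockout pool. A pseudocount of 5 changed the side of the 2-fold threshold of none of the 32 named segments with at least 100 counts.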
